A study of Mus musculus with 14 samples.

Results

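The genes described here are 10 genes of the actin cytoskeleton, several of them first known from muscle. Fscn1, Lcp1 and Actn1 encode proteins that bundle or cross-link actin filaments, Cnn2 and Cnn3 encode calponins, Flna and Coro1a encode organisers of the cortical network, and Vcl, Lmo7 and Sspn encode proteins that act where actin meets the membrane. They were taken by gene symbol from the 18193 genes that had a probe set with a single symbol, and 26 of 45037 probe sets carry their symbols. The probe set with the highest mean over all arrays stands for each gene, and the others serve as a check. Fscn1, Cnn3, Sspn and Lmo7 had been selected on their intensity differences between the subsets of these same arrays, so their levels and differences are given as a description, without a test. The 6 other genes (Cnn2, Vcl, Actn1, Flna, Lcp1 and Coro1a) were tested in a fit over all genes.

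The data are 14 Affymetrix arrays, each hybridised with amplified RNA of sorted splenic B cells. All mice were C57Bl/Ka males. The 3 naive arrays came from unimmunized mice aged 4 to 8 weeks. The other 3 subsets were taken after injection of alum-precipitated NP-CGG, a hapten on a carrier protein. For plasma cells (4 arrays) spleens were taken at day 7 from mice aged 5 to 9 weeks, and for germinal center cells (3 arrays) at day 14 from mice aged 6 to 10 weeks. Memory cells (4 arrays) were taken 10 to 12 weeks after immunization from mice aged 14 to 18 weeks. The dose was 100 µg, except that no dose is given for plasma array 1. Naive cells were sorted as B220+ CD23+ IgD+ with low IgM and the lambda light chain. Plasma cells were NP-binding, syndecan-1+ and PNA-negative with low B220, germinal center cells NP-binding, PNA+ and CD38-low, and memory cells NP-binding, CD38-high and negative for IgM, IgD and PNA. Every sort was set to exclude T cells, myeloid and erythroid cells through CD3, CD4, CD5, CD8, CD11b, Gr-1 and Ter119. Markers of such cells on the arrays are given below. Subset, time after immunization and age of the mice cannot be told apart. Whether replicate arrays came from separate animals is not stated, and the p-values cover the spread between arrays, part or all of which may be technical.

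Actin filaments under the plasma membrane give B cells their shape and carry the forces of migration, antigen uptake and synapse formation. Bundlers such as fascin and plastin align filaments, filamin and alpha-actinin cross-link them, calponins bind along them and are best known from smooth muscle, and coronin 1A acts with the Arp2/3 complex, which starts new branches. Vinculin ties filaments to integrin adhesions, Lmo7 is a LIM-domain protein of cell junctions, and sarcospan is a small membrane protein of the dystrophin complex of muscle. Many genes of this group are targets of serum response factor (SRF), which binds the CArG box in their promoters and works with coactivators of the MRTF family that sense free actin monomers.

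The promoters of 4 of these genes are shown as background. Fscn1 and Cnn3 are the genes with the widest range of levels among the bundlers and the calponins, and Vcl and Cnn2 carry the same CArG box. Whether any motif bears on the levels was not tested. Each sequence is the stretch of 250 bases that ends just before the start of the gene in RefSeq on the mouse build GRCm38.p6, written 5′ to 3′ on the strand of the gene. Capitals mark CCTTATAAGG, a form of the CArG box, in Vcl and Cnn2, and TGACGTCA, known as the cAMP response element, in Fscn1. Neither motif was found in the Cnn3 stretch. The windows are chr14:20929148-20929397 on the plus strand for Vcl, chr10:79988350-79988599 on the plus strand for Cnn2, chr5:142960105-142960354 on the plus strand for Fscn1 and chr3:121426291-121426540 on the plus strand for Cnn3.
Vcl: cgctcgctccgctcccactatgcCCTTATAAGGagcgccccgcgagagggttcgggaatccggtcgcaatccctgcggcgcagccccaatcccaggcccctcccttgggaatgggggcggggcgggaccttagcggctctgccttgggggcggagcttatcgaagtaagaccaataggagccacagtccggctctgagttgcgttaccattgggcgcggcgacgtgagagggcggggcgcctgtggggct
Cnn2: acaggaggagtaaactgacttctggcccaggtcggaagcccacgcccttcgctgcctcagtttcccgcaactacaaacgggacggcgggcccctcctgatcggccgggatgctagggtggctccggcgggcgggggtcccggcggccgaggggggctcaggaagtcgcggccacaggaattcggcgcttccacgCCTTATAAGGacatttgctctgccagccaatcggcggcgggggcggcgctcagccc
Fscn1: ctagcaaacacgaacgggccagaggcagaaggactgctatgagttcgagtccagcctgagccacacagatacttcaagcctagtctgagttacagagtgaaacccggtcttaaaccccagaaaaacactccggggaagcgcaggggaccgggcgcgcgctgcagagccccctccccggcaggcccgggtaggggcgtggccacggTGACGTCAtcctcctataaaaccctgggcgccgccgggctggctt
Cnn3: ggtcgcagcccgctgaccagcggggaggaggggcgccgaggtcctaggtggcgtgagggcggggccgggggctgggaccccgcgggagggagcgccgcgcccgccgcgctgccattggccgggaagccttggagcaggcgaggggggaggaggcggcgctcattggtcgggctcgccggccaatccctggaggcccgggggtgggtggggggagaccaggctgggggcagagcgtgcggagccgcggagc
The match lay at bases -227 to -218 from the start in Vcl, -56 to -47 in Cnn2 and -45 to -38 in Fscn1. All 10 genes had a RefSeq promoter, in 14 windows. Of these windows, 2 held a CArG box and 1 held TGACGTCA. Among all 32851 windows of the same length, searched on both strands, 1.47% held a CArG box, 0.0426% held CCTTATAAGG and 1.55% held TGACGTCA. Among 156 windows of other actin genes, 6.41% held a CArG box, 0 held CCTTATAAGG and 2.56% held TGACGTCA. Every CCTTATAAGG is also counted as a CArG box. The motifs were chosen after the sequences had been read, and a match is a run of letters, not a measured binding site.

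The subsets were set against the markers of their labels. The summed level of the germinal center list (5 of 6 markers measured) was 10566 to 14322 in germinal center and 5623 to 6682 in plasma arrays. It was 1282 to 1797 in naive and 685 to 1020 in memory arrays. Most of the plasma sum was the proliferation gene Mki67, at 5467 to 6522 there. Bcl6 and Rgs13 were above background on no plasma array, and Fas and S1pr2 on all 4. The summed level of the plasma cell list (5 of 5) was 26614 to 36356 in plasma arrays and 2678 to 5359 elsewhere. That of the memory list (3 of 4) was 221 to 356 in memory arrays and 31.3 to 180.3 elsewhere. The naive list (2 of 4, Fcer2a and Cr2) summed to 4225 to 4828 in naive and 3619 to 4540 in memory arrays, which overlapped, and to 54.9 to 1936 in the other arrays. The smooth muscle list (8 of 8) summed to 77.0 to 101 in naive, 88.2 to 103 in germinal center, 87.2 to 92.7 in plasma and 79.0 to 89.8 in memory arrays, and no gene of it exceeded 20.4 on any array. Cnn1, Actg2 and Myl9 were above background on no array, Myh11 on 1, and Acta2, Des, Lmod1 and Tagln on some arrays of every subset. Some markers of other cells were higher on plasma arrays. The T cell list (6 of 7) summed to 114 to 139 in plasma and 77.0 to 101 in the other arrays. The macrophage and granulocyte list (9 of 10) summed to 291, 245, 127 and 258 on the 4 plasma arrays and 114 to 161 on the others. Lyz2 reached 93.1, Csf1r 145 and Thy1 42.6 on plasma arrays, while Itgam, S100a8 and S100a9 were above background on no array. Adgre1 of the macrophage list was highest on naive arrays, at 45.1 to 62.4. It was 18.5 to 38.0 on plasma and 17.8 to 29.6 on the other arrays. Of the T cell list, Cd3g was above background on no array and Cd3d on 1 plasma array only. The fibroblast and stromal list (9 of 10) summed to 115 to 151 in plasma and 92.3 to 134 in the other arrays. The platelet and megakaryocyte list (6 of 6) summed to 115 to 161 in plasma and 88.9 to 135 in the other arrays. On both lists plasma and other arrays overlapped, with the highest sum on a plasma array. The part of such cells in the plasma values was not tested. The background of an array is its brightest reading among 27 bacterial controls without added RNA, 11.0 to 16.1 over the 14 arrays. The ratio of the 3′ to the middle beta-actin probe set, which grows as amplified RNA gets shorter, was 10.1, 17.6 and 6.11 on the 3 germinal center arrays. It was 4.39 to 5.30 on naive, 5.47 to 6.91 on plasma and 4.15 to 5.33 on memory arrays. The same ratio for Gapdh was not raised in germinal center arrays, at 9.09, 10.9 and 8.23. The Gapdh ratio was 9.44 to 12.0 on naive, 5.45 to 8.41 on plasma and 11.0 to 13.0 on memory arrays. The fit was repeated with the beta-actin ratio as a covariate. Only germinal center arrays 1 and 2 exceeded 6.91, so the ratio was largely tied to the subset. That fit cannot separate the part of the ratio from that of the subset, whether a call is kept or lost. In sorted bulk samples a lower level cannot be told apart between fewer cells with the RNA and less RNA per cell. The 6 comparisons between subsets share arrays and are not independent.

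Among the bundlers, Fscn1 on its brightest probe set was low in naive cells and high in the 3 immunized subsets. Lcp1, in contrast, was high in all B cells except plasma cells. Fscn1 encodes fascin, the protein of stiff parallel bundles in filopodia, known among leukocytes from mature dendritic cells. On probe set 1416514_a_at its intensity was 8.80, 57.3 and 16.8 on the 3 naive arrays and 777, 2398 and 1633 on the 3 germinal center arrays. It was 223, 477, 469 and 267 on the 4 plasma arrays and 2539, 1635, 1648 and 1817 on the 4 memory arrays. No naive array reached any array of another subset, and the naive values were above background on 2 of 3 arrays. On the log2 scale Fscn1 was 6.15 ± 0.56 (SE, from limma) higher in germinal center, 4.06 ± 0.53 higher in plasma and 6.52 ± 0.53 higher in memory than in naive cells. In order of level came memory, germinal center, plasma and naive cells. Memory and germinal center arrays overlapped (0.37 ± 0.53), while the plasma arrays lay below both, by 2.09 ± 0.53 against germinal center and 2.47 ± 0.49 against memory cells.

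This pattern rests on 1 of the 4 Fscn1 probe sets. Probe set 1448378_at read between 21.9 and 53.7 on all arrays, higher than in naive cells by 0.36 ± 0.20 in germinal center, by 0.62 ± 0.19 in plasma and by 0.37 ± 0.19 in memory cells. There the plasma values were not below the other immunized subsets but 0.27 ± 0.19 above germinal center and 0.25 ± 0.17 above memory cells, with overlapping arrays. Probe sets 1416515_at and 1416516_at stayed between 7.40 and 13.6, near background throughout. With the mean of all 4 probe sets, Fscn1 was above naive cells by 1.70 ± 0.18 in germinal center, by 1.25 ± 0.17 in plasma and by 1.78 ± 0.17 in memory cells. Markers of dendritic cells, which also express fascin, were read beside these values. The dendritic cell list (9 of 10 markers) summed to 117 to 136 in naive, 303 to 362 in germinal center, 140 to 170 in plasma and 120 to 142 in memory arrays. Most of the germinal center sum was Flt3, at 178 to 238 there. Of the 9 markers only Xcr1 was above background on no array, Flt3 and Siglech were above it on every array, and Cd209a on all 3 germinal center arrays. The sums of memory and naive arrays overlapped on this list. The part of other cells in the Fscn1 values was not tested.

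**Figure D1:**
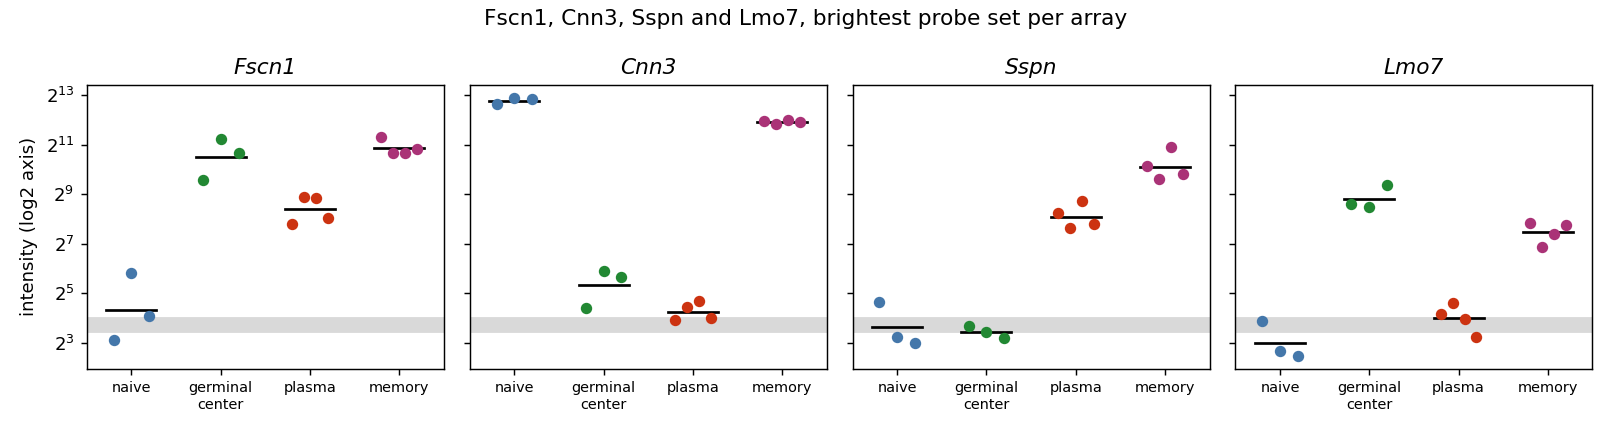
Intensity on a log2 axis (vertical) of the brightest probe set of Fscn1, Cnn3, Sspn and Lmo7 in the 4 B cell subsets (horizontal). Each point is 1 array, each line the mean of log2 values, and the grey band the range of array backgrounds (11.0 to 16.1). Fscn1 lies low only in naive cells, Cnn3 low in germinal center and plasma cells, Sspn high in plasma and memory cells, and Lmo7 high in germinal center and memory cells.

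Lcp1 encodes L-plastin, the actin bundler of leukocytes. Its probe set 1415983_at read 3652, 4119 and 4679 on naive arrays and 3994, 4454, 4248 and 4759 on memory arrays. It read 2517, 1496 and 4178 on germinal center arrays and 623, 643, 709 and 451 on plasma arrays. Every plasma array lay below every other array. Lcp1 fell by 2.79 ± 0.26 from naive to plasma cells (adjusted p = 1.28e-06, limma, Benjamini-Hochberg) and was 2.86 ± 0.24 lower in plasma than in memory cells (adjusted p = 3.64e-07). Against germinal center cells plasma cells were lower by 2.07 ± 0.26 (adjusted p = 3.19e-05). The second probe set, 1448160_at, was also lower in plasma than in naive cells on every array (-2.26 ± 0.24). Naive and memory cells overlapped, with a difference of 0.08 ± 0.26 (adjusted p = 0.938).

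The germinal center values of Lcp1 were spread widely, with array 3 at 4178 among the naive values and array 2 at 1496. The difference from naive cells was -0.72 ± 0.28 and did not pass the test (adjusted p = 0.0913). Without germinal center array 3 it was -1.09 with an adjusted p of 0.00388. Memory cells were 0.80 ± 0.26 higher than germinal center cells (adjusted p = 0.0418), but the arrays overlapped and the call was lost in 15 of 24 alternatives. It was lost without any 1 array other than plasma array 3, plasma array 4 or germinal center array 3, with adjusted p-values up to 0.206 when 1 array was left out. With the actin ratio in the model the difference was -0.22, and on probe set 1448160_at it was -0.61, both of the opposite sign. Germinal center array 3 had the lowest actin ratio of its subset (6.11).

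Actn1, the alpha-actinin of stress fibers and adhesions, was above background on no array with any of its 3 probe sets. Its brightest probe set, 1428585_at, read 7.65 to 14.0, and the other 2 probe sets read 6.92 to 13.5. No order of subsets can be given for Actn1, and no comparison called it (adjusted p from 0.317 to 0.881). The nonmuscle paralogue Actn4 was measured on every array, with 271, 1009 and 1409 in germinal center cells and 693 to 878 elsewhere, and passed in no comparison.

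The calponins differed from each other. Cnn3 was bright in naive and memory cells and close to background in germinal center and plasma cells, whereas Cnn2 was low only in plasma cells. Cnn3 encodes the acidic calponin of nonmuscle cells. On probe set 1436836_x_at it read 6348, 7643 and 7334 on naive arrays and 4047, 3666, 4101 and 3851 on memory arrays. It read 21.4, 60.1 and 51.2 on germinal center arrays and 15.0, 21.8, 25.8 and 16.1 on plasma arrays. Every naive and memory array lay far above every germinal center and plasma array. On the log2 scale Cnn3 was 7.46 ± 0.31 lower in germinal center and 8.53 ± 0.29 lower in plasma than in naive cells. Memory cells were 0.86 ± 0.29 below naive cells without overlap and 6.60 ± 0.29 above germinal center cells. Germinal center and plasma arrays overlapped (-1.07 ± 0.29, plasma minus germinal center).

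All 6 Cnn3 probe sets showed low levels in germinal center and plasma cells. On the other 5, germinal center cells were 2.78 to 6.82 below naive cells on the log2 scale, without overlap. Plasma cells were above background on no array of 3 probe sets, and there at least 48.6-fold (1426724_at), 54.8-fold (1456380_x_at) and 138-fold (1455570_x_at) below naive cells. On the remaining pair they were lower by 7.36 (1436759_x_at) and 3.59 (1438354_x_at). Memory cells were 0.40 to 1.69 below naive cells, and on 3 of the 5 these arrays overlapped. Probe sets with names ending in x_at can share sequence with other transcripts, and 1426724_at, which does not end so, read 708, 725 and 580.1 on naive, 177, 209.6, 262 and 188 on memory, 8.79, 13.2 and 15.8 on germinal center and 9.35, 9.27, 9.12 and 8.21 on plasma arrays. The order of subsets on that probe set was the same.

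**Figure D2:**
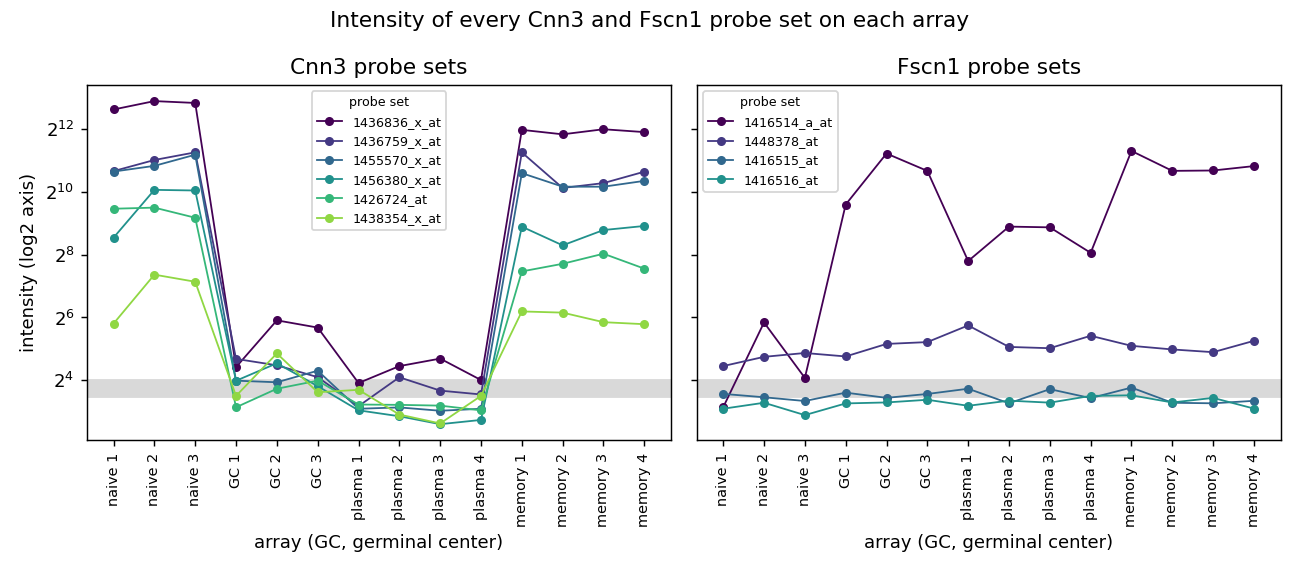
Intensity on a log2 axis (vertical) of every Cnn3 and every Fscn1 probe set on each of the 14 arrays (horizontal; GC, germinal center). Each line is 1 probe set and the grey band is the range of array backgrounds, 11.0 to 16.1. All 6 Cnn3 lines drop between the naive and memory arrays, while 1 of 4 Fscn1 lines rises far above the band on the arrays of immunized mice.

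Cnn2 encodes the calponin found in blood cells and other motile cells. Its only probe set, 1450981_at, read 2149.7, 2290.4 and 1982 on naive and 2228, 1828, 2273 and 1869 on memory arrays, which overlapped. It read 1007, 1363 and 1912 on germinal center and 225, 285, 229.8 and 251 on plasma arrays. All plasma values lay far below those of every other subset. Cnn2 fell by 3.11 ± 0.18 from naive to plasma cells (adjusted p = 1.09e-08) and was 2.48 ± 0.18 lower in plasma than in germinal center cells (adjusted p = 1.44e-07). Against memory cells it was 3.05 ± 0.17 lower (adjusted p = 4.96e-09). These 3 calls held in all 24 alternatives.

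In germinal center cells Cnn2 was slightly lower than in naive cells (-0.63 ± 0.20, adjusted p = 0.0357) and memory cells were higher than germinal center cells (0.56 ± 0.18, adjusted p = 0.0396). Both calls were near the threshold. The first was lost in 12 of 24 alternatives, among them leaving out any naive array, germinal center array 1 or germinal center array 2, with adjusted p-values up to 0.143 when 1 array was left out. The second was lost in 13 of 24, among them leaving out naive array 1, plasma array 3 or 4, germinal center array 1 or 2, or memory array 1, 3 or 4, with adjusted p-values up to 0.201. With the actin ratio in the model these differences were -0.36 and 0.28. The highest germinal center value of Cnn2, 1912, was again on array 3. Cnn1, the calponin of smooth muscle, read 6.78 to 9.75 and was above background on no array.

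The organisers of the cortical network, Flna and Coro1a, were both low in plasma cells, and Flna was low in germinal center cells too. Flna encodes filamin A, which joins filaments into orthogonal networks and anchors membrane receptors to them. Its only probe set, 1426677_at, read 223, 198 and 194 on naive and 332, 253, 432 and 291 on memory arrays. It read 54.6, 50.8 and 120.4 on germinal center and 76.9, 69.8, 90.8 and 83.2 on plasma arrays. The naive and memory arrays all lay above the germinal center and plasma arrays. Flna fell by 1.56 ± 0.28 in germinal center (adjusted p = 0.000907) and by 1.36 ± 0.26 in plasma cells (adjusted p = 0.000895) against naive cells. Against memory cells it was 2.01 ± 0.24 lower in plasma cells (adjusted p = 1.11e-05), and memory cells were 2.21 ± 0.26 above germinal center cells (adjusted p = 2.17e-05).

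Of these Flna calls, only the fall in germinal center cells was lost in any alternative. With the actin ratio as a covariate it was -0.89 with an adjusted p of 0.192. Memory arrays lay above all naive arrays by 0.65 ± 0.26, which did not pass the test (adjusted p = 0.194). That difference passed with quantile normalization (0.86), with each array centred on bright genes (0.83) and without germinal center array 3 (0.65, adjusted p = 0.0388). Germinal center and plasma arrays overlapped (0.20 ± 0.26, plasma minus germinal center, adjusted p = 0.661), and without germinal center array 3 plasma cells were 0.60 higher, which passed (adjusted p = 0.0374). That array read 120 where the other 2 read 54.6 and 50.8.

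Coro1a encodes coronin 1A, the coronin of leukocytes. Probe set 1455269_a_at read 6471, 7246 and 5599 on naive and 5792, 5543, 6395 and 6297 on memory arrays. It read 2492, 5480.0 and 6003 on germinal center and 1338, 1632, 1180.0 and 1779 on plasma arrays. Plasma arrays lay below all others, and the other 3 subsets overlapped. Coro1a fell by 2.13 ± 0.25 from naive to plasma cells (adjusted p = 1.18e-05). It was 2.04 ± 0.23 lower in plasma than in memory cells (adjusted p = 7.12e-06) and 1.57 ± 0.25 lower than in germinal center cells (adjusted p = 0.00026). Probe set 1416246_a_at gave -1.98 ± 0.31 for plasma against naive cells, and the dim probe set 1435288_at, not above background on any plasma array, at least 2.04-fold lower plasma values. The difference of germinal center from naive cells was -0.56 ± 0.27 (adjusted p = 0.172) and that of memory from germinal center cells 0.47 ± 0.25 (adjusted p = 0.22). On 1435288_at memory cells were 1.32 ± 0.40 above germinal center cells, which passed (adjusted p = 0.0372). Plasma cells were at least 1.33-fold below germinal center cells there, which did not pass (adjusted p = 0.166).

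Of the genes at the membrane, Vcl was low in germinal center cells, Lmo7 was high in germinal center and memory cells, and Sspn was high in memory and plasma cells. Vcl encodes vinculin, which links talin and alpha-catenin to actin. Its probe set 1416156_at read 263, 281 and 281 on naive and 34.2, 28.5 and 29.2 on germinal center arrays. It read 420.1, 536, 513 and 422 on plasma and 183, 355, 402 and 229 on memory arrays. The 3 germinal center arrays stood well below all 11 others, and the plasma arrays above all others. Vcl fell by 3.17 ± 0.24 from naive to germinal center cells (adjusted p = 3.09e-07), and memory cells were 3.19 ± 0.22 higher than germinal center cells (adjusted p = 1.32e-07). Plasma cells were 3.94 ± 0.22 higher than germinal center cells (adjusted p = 1.09e-08). These calls held in all 24 alternatives. With the actin ratio in the model the difference of germinal center from naive cells was -3.02.

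Vcl also rose by 0.77 ± 0.22 from naive to plasma cells (adjusted p = 0.0167), where Cnn2, Flna, Lcp1 and Coro1a fell. That call was lost without naive array 1 (0.74, adjusted p = 0.0581) and with each array centred on the median of all genes (0.62, adjusted p = 0.0759). Without each plasma array in turn it was 0.71 to 0.83. The part of other cells in the Vcl values of plasma arrays was not tested. Plasma cells were 0.76 ± 0.21 above memory cells (adjusted p = 0.0109). Memory arrays were spread from 183 to 402 around the naive values (0.02 ± 0.22, adjusted p = 0.987). The second probe set of Vcl, 1416157_at, read 6.36 to 8.50 on all arrays, below background, and gives no check.

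**Figure D3:**
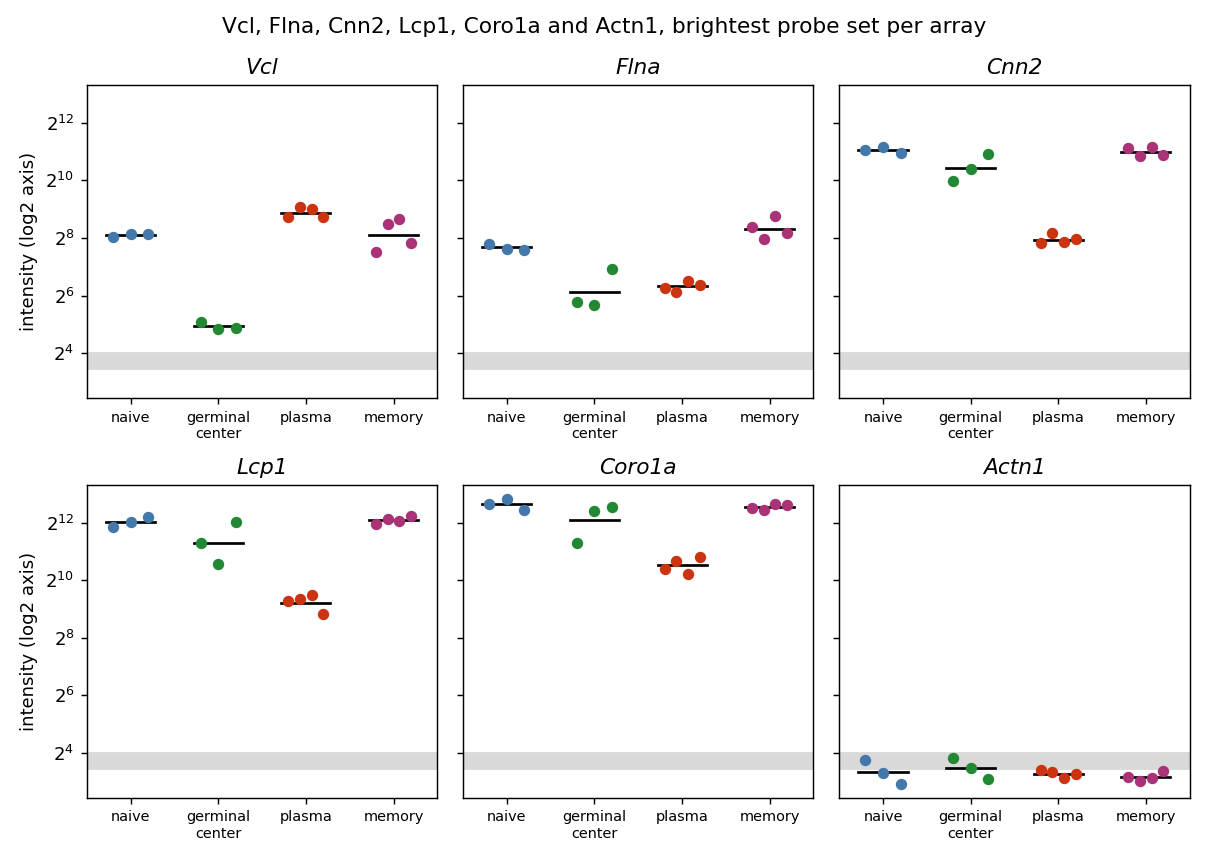
Intensity on a log2 axis (vertical) of the brightest probe set of Vcl, Flna, Cnn2, Lcp1, Coro1a and Actn1 in the 4 B cell subsets (horizontal). Each point is 1 array, each line the mean of log2 values, and the grey band the range of array backgrounds. Plasma arrays are lowest for Cnn2, Lcp1 and Coro1a, germinal center arrays are lowest for Vcl, and Actn1 stays within or below the band.

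Lmo7 encodes a protein with a calponin homology and a LIM domain that binds alpha-actinin and afadin. Its probe set 1455056_at read 14.8, 6.35 and 5.57 on naive and 17.9, 24.7, 15.6 and 9.37 on plasma arrays, which overlapped near background. It read 391, 356 and 670.1 on germinal center and 232, 117, 167 and 220.1 on memory arrays. All 7 of these arrays lay above all naive and plasma arrays, and germinal center arrays lay above memory arrays. Against naive cells, which were above background on 1 of 3 arrays, Lmo7 was 5.81 ± 0.41 higher in germinal center and 4.46 ± 0.38 higher in memory cells. Memory cells were 1.35 ± 0.38 below germinal center cells, and plasma cells 4.83 ± 0.38 below them. With every value under 16 set to 16, the difference of germinal center from naive cells was 4.82 and that of memory from naive cells 3.48. The second probe set, 1458453_at, read 22.8 to 41.2 on germinal center arrays and 9.55 to 15.8 on all others, with memory cells above background on 3 of 4 arrays (12.5 to 15.8) and above all plasma arrays (9.55 to 11.1) but overlapping the naive arrays.

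Sspn encodes sarcospan, which in muscle sits with the sarcoglycans in the membrane. Its probe set 1417644_at read 25.0, 9.51 and 8.00 on naive and 13.0, 10.9 and 9.17 on germinal center arrays. It read 301, 201, 429 and 222 on plasma and 1118, 780.3, 1917 and 898 on memory arrays. Naive cells were above background on 1 of 3 arrays and germinal center cells on none, and every plasma and memory array lay far above both. Sspn was 6.48 ± 0.39 higher in memory and 4.48 ± 0.39 higher in plasma than in naive cells. It was at least 78.2-fold higher in memory and at least 19.5-fold higher in plasma than in germinal center cells, where the bound takes the array background as the germinal center level. Plasma cells were 2.01 ± 0.36 below memory cells, without overlap. The second probe set, 1417645_at, read 9.82 to 15.8 on memory arrays, where 1 of 4 was above background, and 6.92 to 9.15 on all others. Naive and germinal center arrays overlapped (-0.18 ± 0.42, germinal center minus naive).

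Of 11 other measured genes of the dystrophin complex list, 1 rose and 3 fell in plasma against naive cells. Over all genes 14.2% rose and 16.1% fell there. The 1 that rose was the sarcoglycan Sgcb, by 2.27 ± 0.27 (adjusted p = 1.55e-05), and in memory cells it differed by -0.01 ± 0.27 (adjusted p = 0.995). The dystrophin relative Utrn fell by 3.19 ± 0.23 in germinal center cells (adjusted p = 2.38e-07) and the dystroglycan gene Dag1 by 1.35 ± 0.17 (adjusted p = 4.39e-05). They were the only 2 of the 11 that passed against naive cells there, where 11.1% of all genes fell and 8.37% rose. In memory against naive cells none of the 11 other measured genes of the dystrophin complex list passed in limma, and none had an unadjusted p under 0.05, where 5.57% of all genes passed, so that a count of 0 is near the background.

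The counts of the 6 tested genes were read against all genes. In plasma against naive cells 5 of 6 passed, 1 higher (Vcl) and 4 lower (Cnn2, Flna, Lcp1 and Coro1a), where 30.3% of all 18193 genes passed (14.2% higher, 16.1% lower). In plasma against memory cells the same genes passed in the same directions (background 33.2%, of which 17.2% higher and the rest lower). In plasma against germinal center cells Vcl was higher and Cnn2, Lcp1 and Coro1a lower, 4 of 6 (background 23.8%, of which 11.2% higher and 12.6% lower). In germinal center against naive cells Vcl, Flna and Cnn2 were lower, 3 of 6, and none was higher (background 19.5%, of which 8.37% higher and 11.1% lower). Adding the actin ratio as a covariate left 1. In memory against germinal center cells Vcl, Flna, Cnn2 and Lcp1 were higher, 4 of 6 (background 22.4%, of which 11.0% higher and 11.5% lower). That count was 2 without naive array 1, germinal center array 1 or 2, or memory array 1, 3 or 4. In memory against naive cells limma called none of 6 (background 5.57%, of which 2.31% higher and 3.26% lower), with 1 at an unadjusted p under 0.05. Their median log2 change was -1.74 in plasma and -0.68 in germinal center against naive cells, beside 0.06 over all genes in both.

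**Figure D4:**
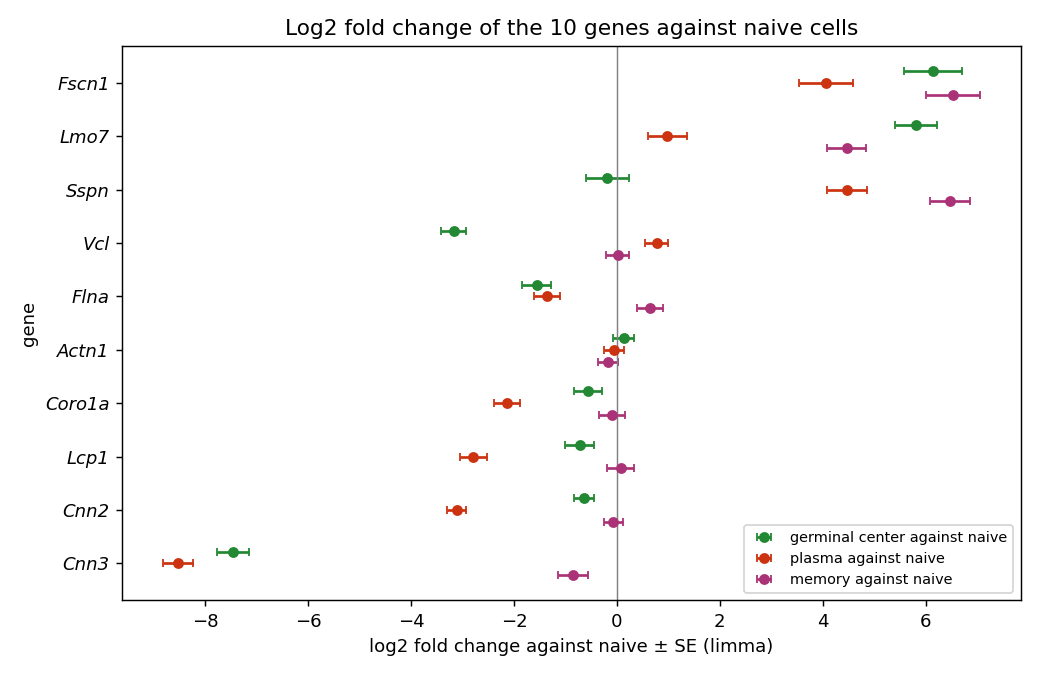
Log2 fold change against naive cells (horizontal) of the 10 genes (vertical) in germinal center, plasma and memory cells. Points are limma estimates from 14 arrays and bars are ± 1 SE. Memory values of Vcl, Actn1, Coro1a, Lcp1 and Cnn2 lie near 0, and those of Fscn1, Sspn and Lmo7 lie above 4.

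A wider list of actin genes gave the surroundings of these 10. Of 154 other genes in 11 families, 142 were measured and 115 were above background on at least 3 arrays. In plasma against naive cells 18 rose and 55 fell, with a median log2 change of -0.19 beside 0.06 over all genes. Each array centred on bright genes gave 26 and 44, and centred on the median of all genes 10 and 60. In germinal center against naive cells 13 rose and 27 fell (median -0.01), or 17 and 22 with arrays centred on bright genes. In memory against naive cells 6 rose and 4 fell (median -0.05), or 7 and 2 centred on bright genes and 4 and 5 centred on the median. That last count of 10 was 5 without naive array 2, 2 without naive array 3, 5 without memory array 2 and 6 without memory array 3. Memory against germinal center cells gave 28 higher and 19 lower, or 31 and 13 centred on the median (all genes 11.0% higher and 11.5% lower). Plasma cells had 18 higher and 40 lower against germinal center cells (all genes 11.2% and 12.6%), and 18 higher and 49 lower against memory cells (all genes 17.2% higher, 33.2% in either direction). The shares over all genes against naive cells are those given for the 6 tested genes. Centring on bright genes moved the median of all genes against naive cells by 0.18 for germinal center cells, 0.24 for plasma and 0.18 for memory cells, so a change of that size is within the scaling. Over all genes the same centring turned the calls from 2580 higher and 2937 lower to 4753 and 2301 in plasma, from 1523 and 2019 to 2225 and 1638 in germinal center, and from 421 and 593 to 675 and 315 in memory against naive cells.

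In plasma cells more genes fell than rose in the Arp2/3 family and among the actins, as Lcp1, Cnn2, Flna and Coro1a did. Of 22 genes of the Arp2/3 complex and its activators, 13 fell and 5 rose against naive cells, with a median of -1.12. Of 14 actins, tropomyosins and tropomodulins, 7 fell and none rose. Over all genes 16.1% fell and 14.2% rose in this comparison. Actg1, cytoplasmic gamma-actin, fell by 2.12 ± 0.19 (adjusted p = 6.71e-07), and Actb, beta-actin, by 1.07 ± 0.36 (adjusted p = 0.037). Evl, which speeds filament growth, was 905 to 1365 on naive arrays and above background on no plasma array, at least 79.7-fold lower (adjusted p = 8.25e-11). The severing protein gene Gsn fell by 4.70 ± 0.31 (adjusted p = 3.01e-08) and the cofilin phosphatase gene Ssh1 by 3.05 ± 0.36 (adjusted p = 1.32e-05). Over 24 alternatives the log2 change was -6.86 to -3.25 for Evl, -4.96 to -3.03 for Gsn and -3.28 to -0.88 for Ssh1. All 3 stayed called. Against these falls, the coronin Coro2b rose by 4.52 ± 0.44 (adjusted p = 1.96e-06), while Coro1b, Coro1c and Coro7 fell as Coro1a did. The plastin Pls3 rose at least 2.02-fold (adjusted p = 0.000145) where Lcp1 fell, from values of 7.86 to 10.0 on naive arrays, all below background, to 15.5 to 39.1 on plasma arrays. Of the 6 other genes of the alpha-actinin, filamin and plastin family, 3 rose and none fell in plasma cells. They were Pls3, Pls1 (0.64 ± 0.17, adjusted p = 0.00895) and the muscle alpha-actinin gene Actn3, which was above background on 1 of 4 plasma arrays. The part of other cells, some of whose markers were higher on plasma arrays, was not tested for these rises. Of SRF and its coactivators, Srf changed by -0.61 ± 0.20, Mrtfa by -1.20 ± 0.23 and Mrtfb by -1.40 ± 0.32 (adjusted p = 0.0293, 0.000952 and 0.0039), and Myocd rose but was above background on 1 of 4 plasma arrays.

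In germinal center cells adhesion and linker genes other than Vcl moved both ways. The alpha-catenin gene Ctnna1, a relative of vinculin, fell by 3.72 ± 0.55 (adjusted p = 0.000192), the membrane linker gene Rdx by 3.47 ± 0.30 (adjusted p = 1.39e-06) and the capping gene Capg by 4.49 ± 0.29 (adjusted p = 6.96e-08). Of 27 other focal adhesion genes 8 fell and 3 rose, where 11.1% of all genes fell and 8.37% rose. Lpp, an adhesion gene of the same list, rose by 2.31 ± 0.24 (adjusted p = 8.65e-06), from a mean of 705 in naive to 3495 in germinal center cells. Cttn, which stabilises Arp2/3 branches, rose by 5.32 ± 0.40 (adjusted p = 2.81e-07). The formin gene Daam1 rose by 2.97 ± 0.49 (adjusted p = 0.000534), and the formin gene Diaph3 at least 7.36-fold (adjusted p = 1.92e-07). Over 24 alternatives the log2 rise was 1.89 to 5.74 for Cttn, 1.37 to 3.62 for Daam1 and 2.58 to 3.92 for Diaph3. All 3 stayed called. Ctnna1 also fell by 3.99 ± 0.51 in memory cells (adjusted p = 0.000349; -4.34 to -2.20 over 24 alternatives), where Vcl was at 0.02 ± 0.22 against naive cells. Memory cells were 5.05 ± 0.27 higher in Capg, 3.52 ± 0.24 in Pdlim1 and 3.25 ± 0.22 in Utrn than germinal center cells, and 2.96 ± 0.23 lower in Lpp.

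In memory against naive cells the other named genes, apart from Ctnna1, changed by under 2 on the log2 scale. Daam1 rose by 1.77 ± 0.46 (adjusted p = 0.037), Pdlim1 by 1.23 ± 0.24 (adjusted p = 0.00854) and Tagln2, a relative of the calponins, by 0.86 ± 0.19 (adjusted p = 0.0142). Rdx fell by 1.34 ± 0.28 (adjusted p = 0.0123) and the kinase gene Limk1 by 1.03 ± 0.26 (adjusted p = 0.033). The calls of Tagln2 (0.80), Rdx (-1.22), Daam1 (1.79) and Limk1 (-0.98) were lost without naive array 3, and those of Daam1 and Limk1 also without naive array 2 or memory array 2, 3 or 4. Limk1 was lost without naive array 1 too, and Daam1 without plasma array 2 or 4.

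**Figure D5:**
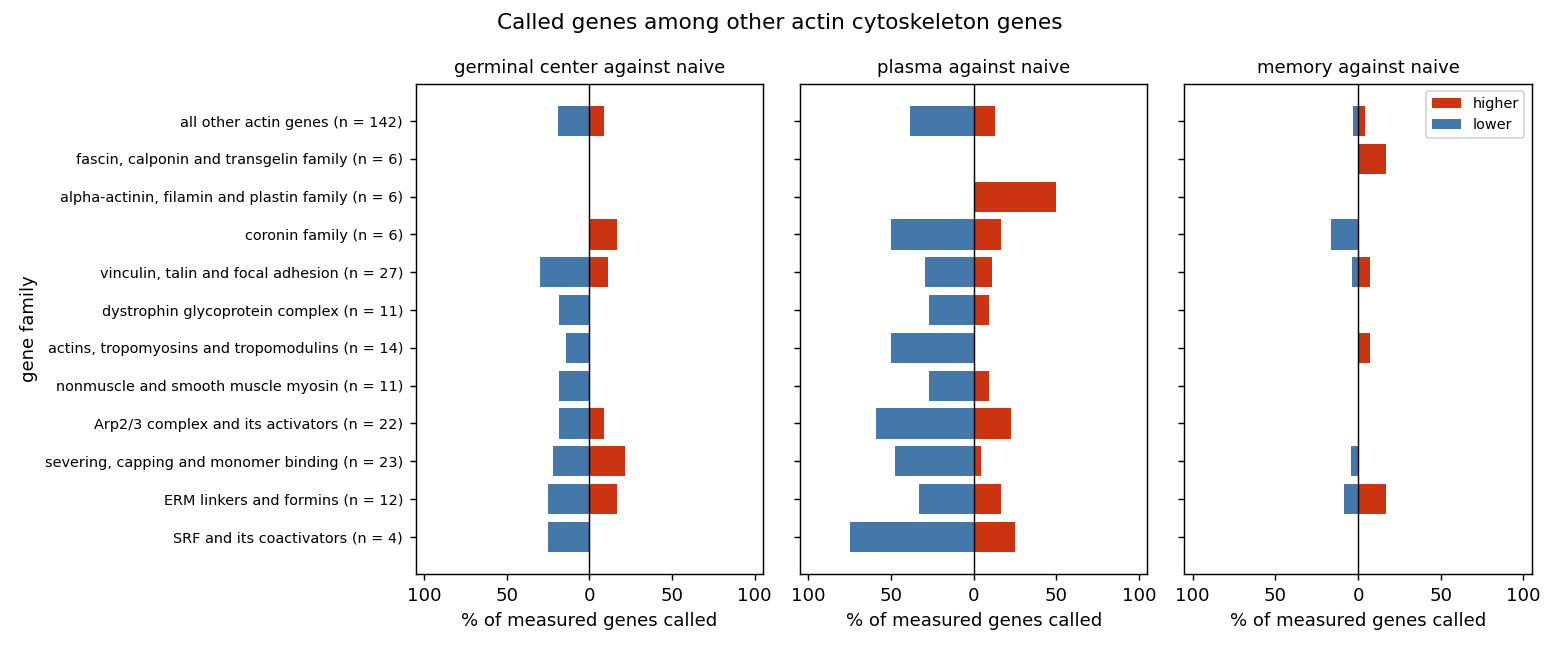
Share of measured genes that passed at an adjusted p under 0.05 (horizontal, % of genes), higher to the right and lower to the left, in 11 families of other actin genes and over all 142 (vertical). The 3 panels are germinal center, plasma and memory cells against naive cells. In plasma cells most families have more genes lower than higher, and in memory cells 10 of 142 passed.

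Likeness to the 4 leading genes was measured as the root mean square difference of log2 values over 14 arrays, each gene centred on its mean, among 11626 genes above background on at least 3 arrays. Cnn3 had the closest neighbours, Hhex at 0.66, Serpinb1a at 0.86 and Cd55 at 0.88, against a standard deviation of Cnn3 itself over the arrays of 3.84. Hhex had mean levels of 3668 in naive and 2347 in memory cells, against 49.1 in germinal center and 10.1 in plasma cells. Lmo7 came next, with Parm1 at 0.74, Bmpr1a at 0.78 and Nt5e at 0.82 (own standard deviation 2.37). Fscn1 was nearest to Pawr at 1.08, Anxa2 at 1.25 and Bmpr1a at 1.41 (own standard deviation 2.56), so Bmpr1a stood near both. For Sspn the nearest were Atxn1 at 1.45, Cxcr3 at 1.53 and Csf2rb at 1.64 (own standard deviation 2.90), farther away than for the other 3 genes.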

How the data were processed

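The table deposited by the authors holds 1 linear intensity per probe set and array, made with RMA per the submitters' processing notes. The RMA version, chip definition and any genome build are not given in the sources used here. RMA corrects background, quantile-normalizes and summarises probes, so values near background are compressed. All values lay above 0, and they were turned into log2 values without a pseudocount or another scaling. Symbols came from the platform annotation: 34945 probe sets had 1 symbol, 932 several and 9160 none, and the last 2 kinds were not used.

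One model with a mean per subset was fitted with limma 3.58.1 (R 4.3.3; lmFit, eBayes without a trend) to 18193 genes on all 14 arrays. P-values were two-sided and adjusted by Benjamini-Hochberg over all genes within each of 6 comparisons, with calls at an adjusted p under 0.05. The fit was tested on simulated data. A bound ("at least") is given where the lower subset was above background on no array and takes the higher of background and signal there. Precision is limited by having 3 or 4 arrays per subset.

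The 10 genes, the lists of actin genes and the marker lists were chosen with earlier results of these data known. Named among other actin genes were, per comparison, up to 3 called rises and 3 called falls with the largest change whose arrays did not overlap, and relatives of the 10 genes. Promoters came from RefSeq. Alternatives changed the normalization, centring, low values, filter, gene unit, variance model, arrays, replicate block and actin ratio. Figures were drawn with matplotlib 3.10.9 in Python 3.11.15.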

Additional observations from a re-analysis of the deposited data

How the results depend on the processing

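The direction of every described difference of the 10 genes against naive cells that passed the test, or that was described without one and did not overlap, held in all 24 alternatives of the fit. The number of tested genes called in germinal center against naive cells (3) was 1 with the actin ratio as a covariate. In memory against naive cells (0) it was 1 with quantile normalization and 1 with arrays centred on bright genes. In memory against germinal center cells (4) it was 2 with a floor of 16, 2 with only the 2 subsets compared and 2 with the covariate. Leaving out 1 array gave 2 to 4, 4 to 5, 0 to 1, 2 to 4, 4 to 5 and 5 to 5 of the 6 genes, in the order germinal center, plasma and memory against naive, memory and plasma against germinal center, and plasma against memory cells. The other actin genes called in germinal center against naive cells (40) were 26 with only the 2 subsets compared and 20 with the covariate. In memory against naive cells (10) they were 6 with quantile normalization and 5 with a floor of 16. In memory against germinal center cells (47) they were 31 and 20 with the first pair of settings. Leaving out 1 array gave 28 to 45, 56 to 75, 2 to 13, 40 to 48, 52 to 60 and 56 to 69, in the same order. Lcp1 in memory against germinal center cells reversed with the covariate (-0.22) and on probe set 1448160_at (-0.61), and Fscn1 on probe set 1448378_at in plasma against germinal center (0.27) and memory cells (0.25). For all of these the cause was not tested.

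Deviations from the subset means of 19 pairs of arrays with the same replicate number correlated at -0.32 to 0.25 (6 over 0.1). Those of 54 pairs with different numbers correlated at -0.35 to 0.35 (17 over 0.1). With 3 or 4 arrays per subset this check cannot decide whether replicate numbers pair the arrays. With the replicate number as a block, 2, 5, 0, 3, 4 and 5 of the 6 genes and 37, 64, 8, 40, 57 and 65 of the other actin genes were called, in the order above.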
